A study of Mus musculus with 21 samples.

Results

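The bovine truncated analogs of parathyroid hormone (PTH) were examined against vehicle in primary mouse osteoblasts, the cells that build bone. They were chosen by treatment label: bPTH(3-34) with 3 arrays and bPTH(7-34) with 3 arrays, set against the 3 vehicle arrays, so 9 of the 21 arrays of the study. Each analog was compared with vehicle alone, and the 6 bovine arrays were also compared with vehicle as 1 group, over 22180 genes. bPTH(3-34) begins at residue 3 of the hormone and was used at 100 nM. bPTH(7-34), the bovine (D-Trp12,Tyr34) amide, begins at residue 7 and was used at 1000 nM. The doses of the bovine analogs differed, so their values are given side by side and no difference between them was tested.

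All cultures came from the skull vault (calvaria) of C57BL/6J mice aged 7 to 10 days. The cells were at passage 2, were differentiated from day 3, and were deprived of serum on day 10 for 24 h before 4 h of treatment. Osteoblasts were prepared separately for each biological replicate, and the labels do not say whether arrays of different treatments with the same number came from 1 preparation. Other cultures received hPTH(1-34), hPTH(1-31), PTH(1-36) or hPTH(7-34), each at 100 nM for 4 h on 3 arrays. The first 3 of these hold the N-terminal residues; the term intact analogs is used for them.

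PTH acts on osteoblasts through Pth1r, a receptor that couples to Gs and adenylyl cyclase and also to Gq and phospholipase C. The first residues of the peptide drive the coupling to adenylyl cyclase. Fragments that lack them still bind the receptor and are known as antagonists or weak agonists. Cyclic AMP activates protein kinase A and the factor CREB, and early CREB targets include the Nr4a nuclear receptors, while later responses include the osteoclast ligand RANKL.

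No gene was called against vehicle at an adjusted p under 0.05 with either bovine analog or with both pooled (limma, Benjamini-Hochberg over 22180 genes, 0 called, or 0% of those tested, in each of the 3 comparisons). Genes with large differences between the analogs at 100 nM read near vehicle on the bovine arrays. Dgat1, which makes triacylglycerol, gave 5.84 to 6.09 log2 units with the bovine analogs, 5.63 to 6.00 with vehicle and 9.68 to 9.81 with hPTH(1-34). The 95% interval of the pooled change lay within 1.5-fold of vehicle, in either direction, for 19237 genes (86.7%) and within 2-fold for 21986 genes (99.1%). The remaining 194 genes had an interval that reached past 2-fold. Of the 19237 genes within 1.5-fold, 7520 had a mean signal under 4 log2 units. The intervals bound array signal, and whether a change in transcript shows in full at so low a signal was not tested.

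The promoters of the 3 Nr4a genes are shown because these CREB targets were called lower with bPTH(3-34) than with hPTH(1-34), while their signal with the bovine analogs was not called different from vehicle. Each sequence is the 250 bases before the gene's start in RefSeq (mouse build GRCm38.p6), read 5′ to 3′ on the gene's strand. Capitals mark TGACG, the core of the cyclic AMP response element, on either strand (CGTCA on the other). Nr4a1 lies at chr15:101266596-101266845 on the + strand, Nr4a2 at chr2:57124004-57124253 on the - strand and Nr4a3 at chr4:48045055-48045304 on the + strand, and each window held 4 copies.
Nr4a1: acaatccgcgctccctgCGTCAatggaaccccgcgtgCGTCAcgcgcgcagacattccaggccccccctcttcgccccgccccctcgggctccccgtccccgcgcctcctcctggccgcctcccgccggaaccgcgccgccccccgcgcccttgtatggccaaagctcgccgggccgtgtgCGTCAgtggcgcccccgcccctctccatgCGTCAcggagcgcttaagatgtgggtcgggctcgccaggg
Nr4a2: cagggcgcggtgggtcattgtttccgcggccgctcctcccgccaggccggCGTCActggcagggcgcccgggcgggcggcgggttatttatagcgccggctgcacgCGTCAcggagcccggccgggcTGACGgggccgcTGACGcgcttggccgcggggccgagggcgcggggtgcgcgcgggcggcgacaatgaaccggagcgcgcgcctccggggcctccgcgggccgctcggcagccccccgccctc
Nr4a3: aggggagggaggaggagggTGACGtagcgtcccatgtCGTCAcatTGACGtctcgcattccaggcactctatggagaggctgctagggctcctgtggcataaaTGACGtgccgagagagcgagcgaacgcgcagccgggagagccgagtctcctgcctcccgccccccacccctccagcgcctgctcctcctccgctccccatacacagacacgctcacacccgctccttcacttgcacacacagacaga

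A window of this length was at hand for 16990 of the genes tested, and 3942 of those windows (23.2%) held TGACG on either strand. The whole element, TGACGTCA, which holds the shorter motif, was in 390 windows (2.3%). Among all genes the median pooled change was 0.0017 log2 units with TGACG in the window and -0.005 without it. A match describes these letters alone.

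The arrays of the 9 cultures had similar distributions, with medians of 3.49 to 3.59 log2 units. Pairs of arrays within a group correlated at 0.9907 to 0.9933 over genes and pairs from different groups at 0.9907 to 0.9938. Of 9 osteoblast markers measured, 7 had a vehicle mean of at least 6 log2 units, among them Col1a1 (13.25 ± 0.04, SD, n = 3) and Pth1r (7.21 ± 0.09, SD, n = 3). All 13 macrophage and osteoclast markers also reached 6. The mean over those 13 markers was 9.36 to 9.51 on the vehicle arrays, 9.46 to 9.53 with bPTH(3-34) and 9.39 to 9.48 with bPTH(7-34). Of 6 cartilage markers 3 reached it, and none of the osteocyte, endothelial, fat, muscle, erythroid or lymphoid markers measured did. In such mixed cultures fewer cells of a type and less RNA per cell cannot be told apart.

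The receptor and its second messengers came first. Pth1r, the PTH receptor itself, had a pooled change of -0.11 log2 units (95% interval -0.33 to 0.12), while it was called higher with bPTH(3-34) than with hPTH(1-34) by 0.95. Pde10a, a phosphodiesterase that degrades cyclic nucleotides, read 5.32, 5.17 and 5.31 with vehicle. It read 5.29, 5.53 and 5.44 with bPTH(3-34) and 5.72, 5.46 and 5.57 with bPTH(7-34). The bPTH(7-34) arrays all lay above the vehicle arrays, and the bPTH(3-34) arrays overlapped them. The pooled change of Pde10a was 0.23 (0.06 to 0.41) with limma's unadjusted p of 0.0111 and an adjusted p of 0.738. hPTH(1-34) arrays read 7.42, 7.20 and 7.33 for the same gene, so the bovine arrays all sat far below them. Pde3b, another phosphodiesterase, had a pooled change of -0.05 (-0.24 to 0.15). Ramp3, which pairs with receptors of this family, was 4.44, 4.42 and 4.16 with vehicle, 4.13, 4.23 and 4.10 with bPTH(3-34) and 3.96, 3.68 and 4.10 with bPTH(7-34), and hPTH(1-34) gave 6.01 to 6.33. The pooled Ramp3 estimate was -0.31 (-0.58 to -0.04) and was not called, and it pointed away from the hPTH(1-34) arrays.

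Of 29 genes measured on the list of cyclic AMP and G protein feedback, 29 had a pooled interval within 1.5-fold, 0 were called and the median change was 0, against -0.0033 over all genes tested. At unadjusted p under 0.05 there were 0 higher and 1 lower, or 3.45%, where 5.79% of all genes passed that mark. With bPTH(3-34) against hPTH(1-34), 5 of the same 29 were called higher and 2 lower, where 5.38% of all genes were called higher and 3.94% lower. This and the other gene lists were chosen with earlier results of these data known. Such counts therefore describe the listed genes and are no test of a list.

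The Nr4a genes, early nuclear receptors downstream of CREB whose promoters are printed above, were not called against vehicle. Nr4a3 read 3.17, 3.82 and 3.12 with vehicle, 3.70, 3.52 and 3.41 with bPTH(3-34), 3.71, 4.24 and 3.68 with bPTH(7-34), and 6.72, 7.17 and 7.01 with hPTH(1-34). Its pooled change was 0.34 (-0.0027 to 0.68), the highest of the panel, and 1 bPTH(7-34) array at 4.24 stood above the other 5 bovine arrays. The estimate for Nr4a3 was 0.565 without vehicle replicate 2 and 0.215 without vehicle replicate 3. Vehicle and bovine arrays overlapped. Nr4a2 read 6.55, 6.06 and 5.89 with vehicle, 5.84, 5.91 and 5.98 with bPTH(3-34) and 5.76, 6.17 and 6.15 with bPTH(7-34). The pooled change of Nr4a2 was -0.20 (-0.47 to 0.07), and without vehicle replicate 1 it was -0.007. hPTH(1-34) read 9.03, 8.99 and 8.84 for it. Nr4a1 had a pooled change of 0.20 (-0.10 to 0.49), with bovine arrays at 6.01 to 6.46 and vehicle arrays at 5.78 to 6.27, and the estimate was 0.042 without vehicle replicate 3.

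Fos and Crem had intervals within 1.5-fold. Fos, a subunit of the AP-1 factor, changed by an estimated -0.14 (-0.40 to 0.11), and Crem, a relative of CREB that feeds back on it, by 0.08 (-0.14 to 0.31). Cebpd, a C/EBP factor, was 4.25, 4.18 and 4.3 with vehicle, 4.57, 4.45 and 4.59 with bPTH(3-34) and 4.83, 4.68 and 4.52 with bPTH(7-34). All 6 bovine arrays of Cebpd lay above all 3 vehicle arrays, with a pooled estimate of 0.36 (0.10 to 0.62), and the gene was not called. Hdac5, a class IIa deacetylase regulated downstream of PTH, had bovine arrays at 7.30 to 7.45 and a pooled estimate of -0.19 (-0.35 to -0.03), also not called. Such separation of all 6 from all 3 was found for 515 genes (2.32% of those tested), 229 higher and 286 lower. bPTH(3-34) alone lay beyond vehicle for 2232 genes (10.1%) and bPTH(7-34) alone for 1881 (8.48%). In groups this small some genes separate by chance, so these are not counts of changed genes, and the shares were not tested.

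Over the 31 measured genes of the cyclic AMP and CREB list, the pooled median was 0.02, with 2 higher and 1 lower at unadjusted p (9.68% against 5.79% of all genes) and 29 within 1.5-fold. The median was 0.03 with bPTH(3-34) at 100 nM and 0.0033 with bPTH(7-34) at 1000 nM. Against hPTH(1-34), bPTH(3-34) was called lower for 21 of the 31 and higher for 1, and the median difference was -0.95. Over all genes 5.38% were called higher and 3.94% lower. The list was chosen with earlier results of these data known, so these counts are no test of it. The list of early genes of protein kinase C, calcium and ERK, the other arm of the receptor, had 29 measured members, all 29 within 1.5-fold, a pooled median of 0.04, and 0 called. Of its members 1 passed an unadjusted p (3.45%), Ier5, an immediate early gene, with 0.26 (0.04 to 0.48). Against hPTH(1-34), bPTH(3-34) was called higher for 3 of the 29 and lower for 6, with a median difference of 0.01. This list thus had no shared direction in that pair either. Only 4 h was measured, so whether this arm was active at other times was not tested.

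**Figure D1:**
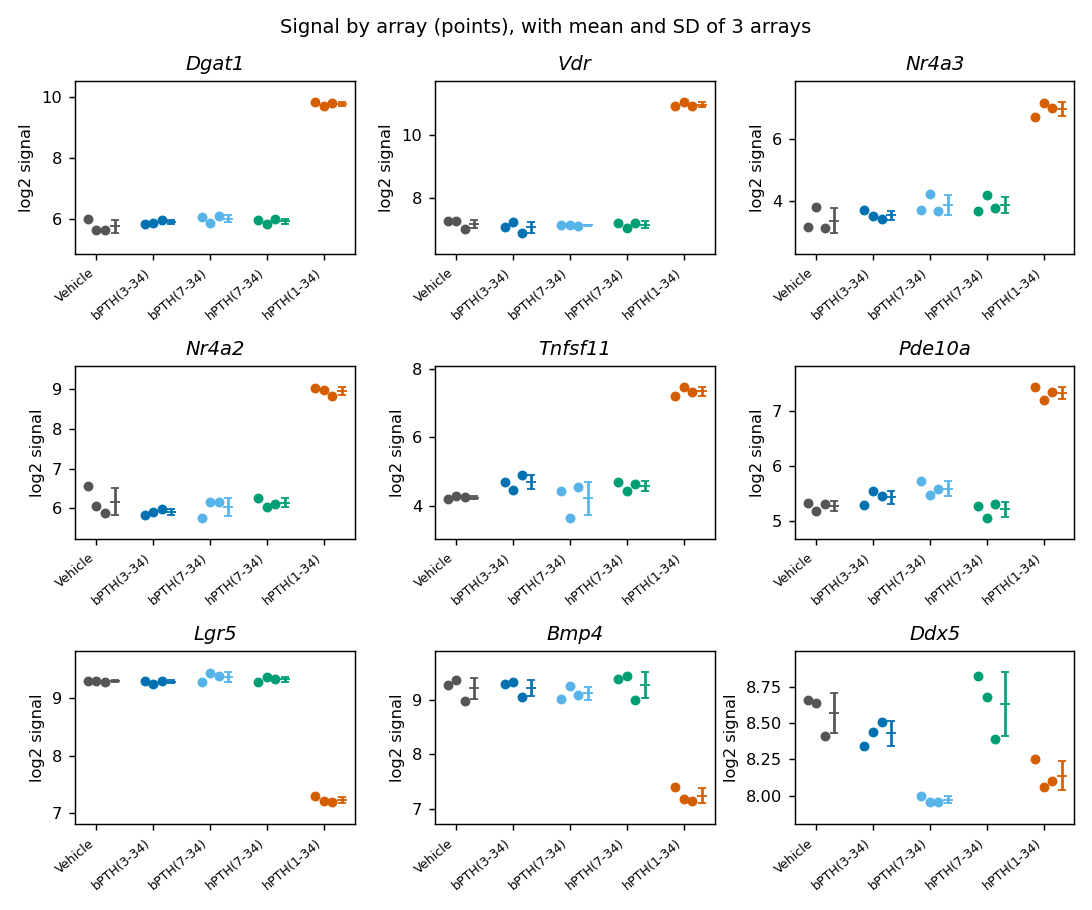
Log2 signal of 9 genes (vertical axis, each panel on its own scale) on the 3 arrays of each of 5 groups (horizontal axis); points are arrays and bars are the mean with SD of 3 arrays. In the first 8 panels the bovine arrays lie nearer to vehicle than to hPTH(1-34), as for Vdr at 6.88 to 7.23 against 10.93 to 11.07. The bPTH(7-34) arrays of Pde10a and the bPTH(3-34) arrays of Tnfsf11 all lie above vehicle. In the Ddx5 panel the bPTH(7-34) arrays at 7.96 to 8.0 lie below vehicle.

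Dgat1 and the vitamin D receptor gene Vdr gave the largest differences from hPTH(1-34). Vdr, which mediates the action of vitamin D, read 7.24, 7.24 and 7.00 with vehicle, 7.05, 7.23 and 6.88 with bPTH(3-34) and 7.13, 7.12 and 7.09 with bPTH(7-34). The 6 bovine arrays and the vehicle arrays overlapped. The pooled change was -0.08 (-0.26 to 0.11), so the interval ran from 0.832-fold to 1.08-fold of vehicle. Its upper end came to 2.91% of the change by which the intact analogs exceeded hPTH(7-34). Dgat1 read 6.00, 5.63 and 5.65 with vehicle, 5.84, 5.88 and 5.97 with bPTH(3-34) and 6.08, 5.87 and 6.09 with bPTH(7-34). One vehicle array reached into the bovine range. The pooled change of Dgat1 was 0.20 (0.01 to 0.38) with limma's unadjusted p of 0.037 and an adjusted p of 0.852. Without vehicle replicate 1 the estimate was 0.315.

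Cytokines that act on osteoclasts were next. Tnfsf11, which encodes RANKL, read 4.18, 4.28 and 4.25 with vehicle, 4.70, 4.47 and 4.90 with bPTH(3-34) and 4.44, 3.64 and 4.55 with bPTH(7-34). The 3 bPTH(3-34) arrays lay above vehicle with an estimate of 0.45 (0.05 to 0.85), and 1 bPTH(7-34) array lay below all others. hPTH(1-34) read 7.23, 7.48 and 7.35. The pooled change of Tnfsf11 was 0.21 (-0.13 to 0.56), and it was 0.128 to 0.356 without each array, highest without bPTH(7-34) replicate 2. Tnfrsf11b, which encodes the RANKL decoy osteoprotegerin, had a pooled change of -0.12 (-0.40 to 0.16), and bPTH(3-34) was called higher than hPTH(1-34) by 1.07 ± 0.15 (SE) for it (adjusted p = 0.000101, limma). Il6, an inflammatory cytokine, had a pooled change of -0.02 (-0.47 to 0.43), a wide interval at a low vehicle signal of 2.65 ± 0.23 (SD, n = 3).

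Of 16 osteoclast-supporting cytokines, 0 were called, 1 was higher and 1 lower at unadjusted p (12.5%, beside 5.79% of all genes), and 13 were within 1.5-fold (81.2%, beside 86.7% of all genes). The 35 inflammatory and acute phase genes had the highest pooled median of the 24 lists, 0.058, with 0 higher and 1 lower at unadjusted p and 27 within 1.5-fold (77.1%). Saa3, an acute phase protein, belonged to it with a pooled change of 0.32 (-0.12 to 0.76), and Lcn2, an iron-scavenging protein, with -0.19 (-0.42 to 0.04).

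Against hPTH(1-34), bPTH(3-34) was called higher for 9 and lower for 7 of 43 Wnt genes, where 5.38% of all genes were called higher and 3.94% lower. Of 34 TGF-beta and BMP genes, 9 were called higher and 7 lower in the same pair. Both lists were chosen with earlier results of these data known, so these counts are no test of them. Lgr5, a receptor for R-spondins that strengthen Wnt signals, read 9.31, 9.31 and 9.29 with vehicle, 9.31, 9.26 and 9.31 with bPTH(3-34), 9.28, 9.45 and 9.39 with bPTH(7-34) and 7.29, 7.20 and 7.19 with hPTH(1-34). The pooled change of Lgr5 was 0.03 (-0.10 to 0.16). That estimate was -0.19 when all probe clusters of the gene were averaged, and it was not called either way. Rspo3, an R-spondin, changed by an estimated -0.04 (-0.19 to 0.11) and Fzd5, a Wnt receptor, by 0.03 (-0.12 to 0.17). Bmp4, a bone morphogenetic protein, read 9.27, 9.36 and 8.98 with vehicle and 9.01 to 9.32 on the bovine arrays, a pooled change of -0.04 (-0.32 to 0.24). Bmp2 gave -0.09 (-0.33 to 0.16) and Grem1, an antagonist of these proteins, -0.03 (-0.20 to 0.14). Lgr4, another R-spondin receptor, passed an unadjusted p with 0.23 (0.06 to 0.39) and was not called. Of 43 Wnt genes 40 were within 1.5-fold, and of 34 TGF-beta and BMP genes 33 were, with 0 called in either list. Lrrc32, which tethers latent TGF-beta to the cell surface, gave 0.04 (-0.13 to 0.22) and stood 2.85 ± 0.10 (SE) lower with bPTH(3-34) than with hPTH(1-34).

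Matrix genes with a high signal had narrow intervals. Col1a1, the main collagen of bone, changed by an estimated -0.0050 (-0.12 to 0.11), Mmp13, a collagenase, by 0.06 (-0.13 to 0.24) and Has2, which makes hyaluronan, by -0.06 (-0.23 to 0.11). Sp7, an osteoblast transcription factor, had an estimate of -0.06 with a wider interval (-0.31 to 0.19). Bglap, which encodes osteocalcin, was low (3.73 ± 0.20, SD, n = 3, with vehicle) and its interval was wider, 0.08 (-0.36 to 0.51). Of the 23 osteoblast matrix and differentiation genes measured, 21 were within 1.5-fold and 1 passed an unadjusted p, Dmp1, a matrix protein of osteocytes, with 0.44 (0.01 to 0.87). Metabolic and growth lists were bounded in the same way. The pooled interval lay within 1.5-fold for all 21 glycolysis and hypoxia genes measured (median 0.0017), all 19 cholesterol synthesis genes (median 0), all 33 cell cycle genes (median -0.035), all 17 clock genes (median -0.017) and all 30 growth factor and receptor genes (median 0.03). Against hPTH(1-34), bPTH(3-34) was called higher for 9 of the 33 cell cycle genes and lower for 0. It was called higher for 5 and lower for 5 of the 17 clock genes, beside 5.38% higher and 3.94% lower over all genes. These lists too were chosen with earlier results of these data known. All 24 macrophage and osteoclast genes of the longer marker list were within 1.5-fold of vehicle too, with a median of 0.027. Adipoq, a fat cell hormone, read low at 2.93 with vehicle and 2.21 to 2.56 with the bovine analogs, and its interval of -0.92 to -0.25 reached past 1.5-fold. Across the 24 lists, which hold 523 distinct genes, 0 genes were called, and list medians lay between -0.13 and 0.058.

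All 32 panel genes, chosen for their part in PTH responses or bone with earlier results of these data known, were measured. Their median pooled change was 0.012, 30 were within 1.5-fold and 32 within 2-fold, and 2 passed an unadjusted p (6.25%, beside 5.79% of all genes). Nr4a3 and Saa3 were the genes whose interval reached past 1.5-fold.

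**Figure D2:**
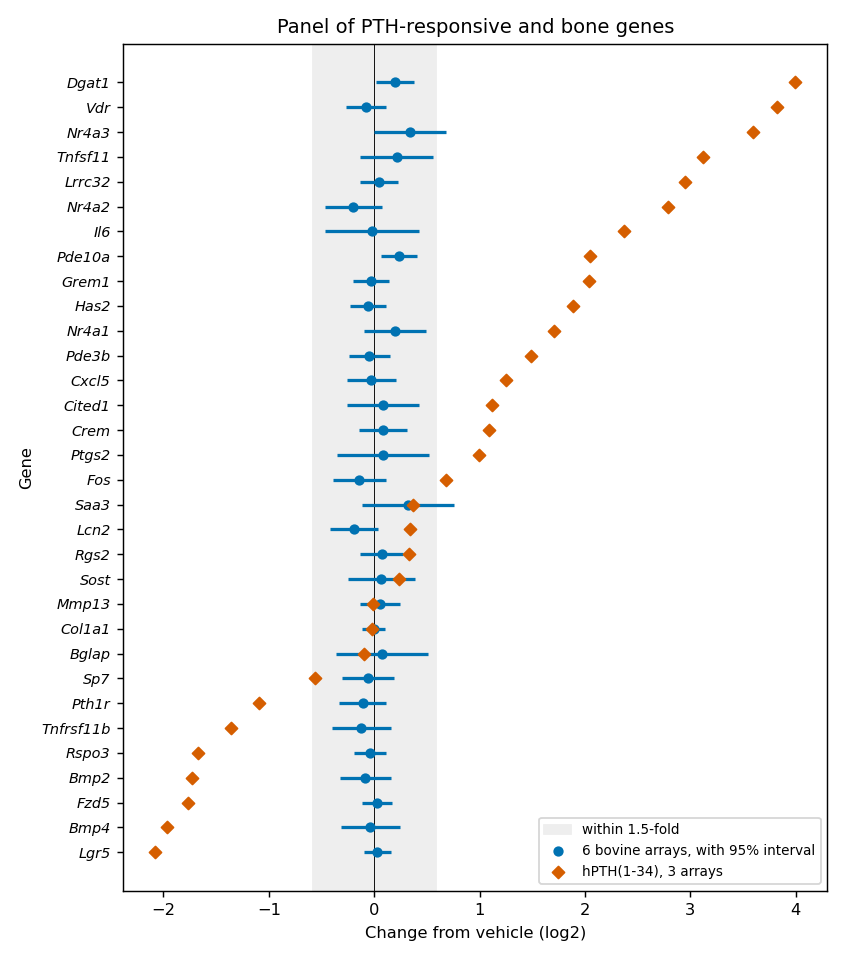
Change from vehicle in log2 units (horizontal axis) for the 32 panel genes (vertical axis, ordered by hPTH(1-34)); blue points are the 6 bovine arrays with 95% intervals, orange diamonds the 3 hPTH(1-34) arrays, and the grey band is 1.5-fold either way. The same 3 vehicle arrays serve both. The blue points run from -0.20 to 0.34, and the diamonds reach 4.00 for Dgat1 and -2.08 for Lgr5.

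The intact analogs offered a set of genes chosen by differences between arrays that are neither vehicle nor bovine. It took genes called and at least 2-fold different between the 9 arrays of hPTH(1-34), hPTH(1-31) and PTH(1-36) and the 3 arrays of hPTH(7-34). The spread of each gene came from all 21 arrays, and the bovine intervals rest on the same spread. A call favours genes with a small spread, so narrow bovine intervals in the set follow in part from this choice. The set held 238 genes, of which 167 were higher and 71 lower with the intact analogs, and the median size of that difference was 1.27 log2 units. Of the 71 lower genes 1, Acod1, was also called higher than vehicle with hPTH(7-34), by 2.00 log2 units. Acod1 was called higher than vehicle with hPTH(1-34) too, by 1.19, so its sign in the set runs against that rise. In the 6 bovine arrays the median change of the 238, signed by the direction of the intact analogs, was -0.0016, and single genes ran from -0.41 to 0.48. It pointed the same way for 118, the opposite way for 119 and was 0 for 1. None was called, and at unadjusted p 10 moved the same way and 8 the opposite way. The signed median was 0.01 with bPTH(3-34) and 0.0033 with bPTH(7-34).

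For 220 of the 238 genes (92.4%) the pooled interval lay within 1.5-fold, and for 237 within 2-fold. The upper end of the signed interval was under 50% of the intact-analog difference for 230 genes and under 25% for 171, with a median of 16.2%. With 3 arrays it was under 50% for 225 genes with bPTH(3-34) and for 222 with bPTH(7-34). TGACG was in the promoter window of 54 of 169 members with a window (32%, beside 23.2% of all genes). The median pooled change, not signed by direction, was 0.013 for members with the motif and -0.022 for those without it. Ptgfr, a prostaglandin receptor, had the smallest p of the set, with -0.33 (-0.54 to -0.12) against a difference of 1.30 with the intact analogs, and was named after its values were seen. Net1, an exchange factor for RhoA also named afterwards, gave 0.20 (0.03 to 0.38) against 1.21.

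The mean signed change over the 238 genes was also taken for each array against the vehicle mean. Vehicle arrays gave 0.006, 0.018 and -0.024. bPTH(3-34) gave 0.01, 0.018 and -0.009, and bPTH(7-34) gave 0.023, -0.015 and 0.024. These 9 values overlapped throughout. The hPTH(1-34) arrays, by which the set was in part chosen, gave 1.437 to 1.492.

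**Figure D3:**
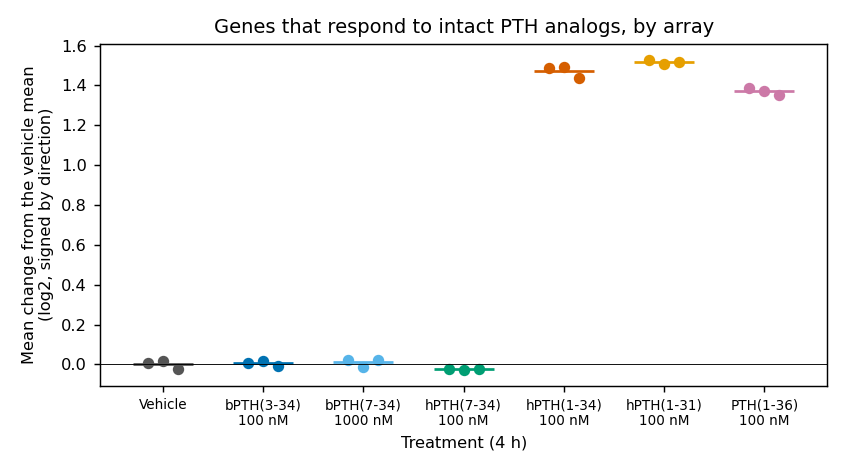
Mean signed change from the vehicle mean over 238 genes that respond to intact analogs (vertical axis, log2) for each of the 21 arrays (points) by treatment (horizontal axis); lines are group means. The vehicle and bovine arrays lie between -0.024 and 0.024, and the intact analogs between 1.35 and 1.53.

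**Figure D4:**
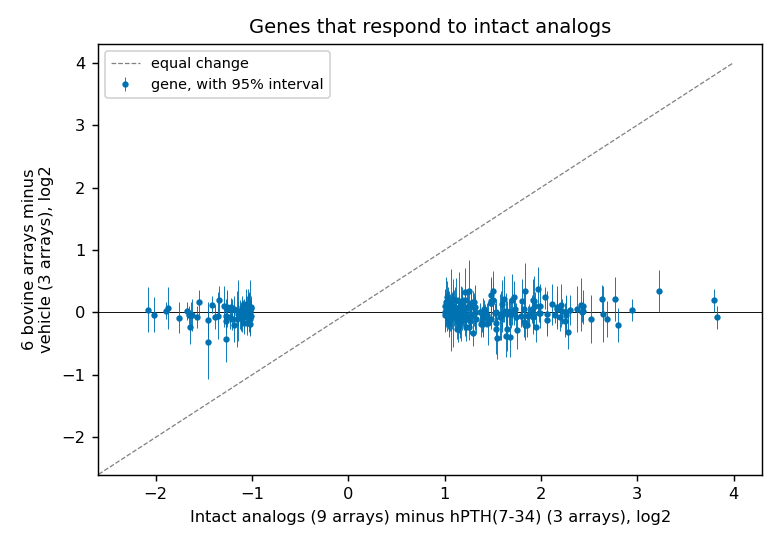
Each point is 1 of the 238 genes, with the difference between intact analogs and hPTH(7-34) on the horizontal axis and the change of the 6 bovine arrays from vehicle with its 95% interval on the vertical axis, both in log2 units. Points lie along 0, between -0.48 and 0.38, and away from the dashed line of equal change.

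What the larger group could detect followed from the width of its intervals. The median 95% interval extended 0.263 log2 units either way (middle 50% of genes 0.199 to 0.337) with 6 arrays against 3, and 0.303 with 3 against 3, so pooling narrowed it to 86.6% of its width. Were a gene the lone called gene, its estimated change would need a certain size for a call. The median of that size was 0.856 (1.81-fold) pooled and 0.988 (1.98-fold) for 1 analog. It applies to the estimate, so true changes near this size, in single genes, could also go uncalled, as could smaller ones. For bPTH(3-34) alone 17365 genes (78.3%) had an interval within 1.5-fold and 21735 (98.0%) within 2-fold. The counts for bPTH(7-34) alone were 17447 (78.7%) and 21756 (98.1%). A pair of one-sided limma tests against each limit, with Benjamini-Hochberg adjustment over all genes, placed 20249 genes (91.3%) within 1.5-fold and 22077 (99.5%) within 2-fold for the pooled arrays.

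The bound, which is on array signal, was tighter at higher signal. Of 9963 genes with a mean under 4 log2 units, 75.5% had a pooled interval within 1.5-fold, against 91.6% of 5126 genes from 4 to 6, 98.8% of 4817 from 6 to 8 and 99.4% of 2274 at 8 or more. The share that passed an unadjusted p was 7.85%, 5.79%, 3.53% and 1.58% in the same ranges. Pooling joins analogs at different doses, so an effect of 1 analog alone enters the pooled estimate diluted. A test for a change by either analog (moderated F test) called 0 genes, with 1222 (5.51%) at unadjusted p.

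**Figure D5:**
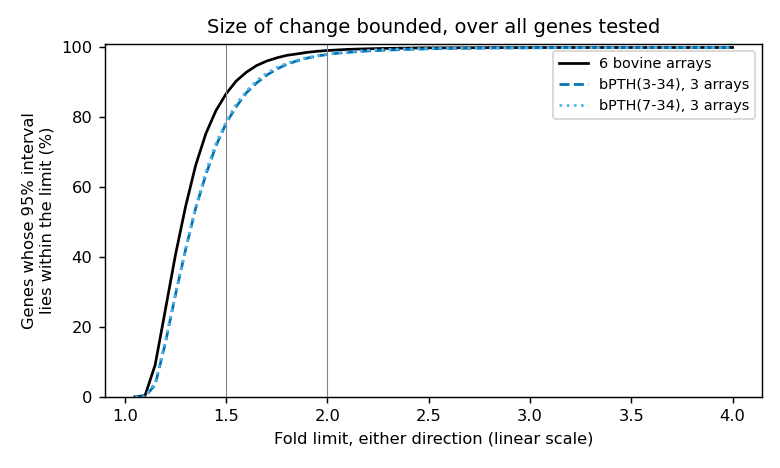
Percent of 22180 genes whose 95% interval lies within a fold limit (vertical axis) as the limit grows (horizontal axis, linear), for the 6 pooled bovine arrays and each analog alone. At 1.5-fold the pooled line is at 86.7% and the single analogs at 78.3% and 78.7%; grey lines mark 1.5-fold and 2-fold.

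The number of genes at unadjusted p under 0.05 was 1313 with bPTH(3-34) (5.92%), of which 528 (2.38%) were higher and 785 (3.54%) lower. It was 1151 with bPTH(7-34) (5.19%), of which 510 (2.3%) were higher and 641 (2.89%) lower, and 1285 pooled (5.79%), 520 (2.34%) higher and 765 (3.45%) lower. The smallest adjusted p-values of limma were 0.446, 0.272 and 0.155. Zfp831, a zinc finger gene, had the smallest p of the pooled comparison: 3.30, 3.10 and 2.97 with vehicle, 3.84, 4.00 and 3.56 with bPTH(3-34) and 3.77, 3.82 and 3.55 with bPTH(7-34). All 6 bovine arrays were above vehicle, at a signal near the low end of the scale. The pooled change was 0.63 (0.41 to 0.86; adjusted p = 0.155, limma). Nova1, an RNA-binding splicing factor, gave 0.58 (0.33 to 0.83) and Cyp1a1, a xenobiotic-metabolising enzyme, 0.57 (0.32 to 0.82), neither called. Ttr, the thyroid hormone carrier transthyretin, gave 0.50 (0.26 to 0.73) and Vstm5 0.63 (0.33 to 0.93).

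On the lower side the smallest p-values belonged to Krtap6-3, Meg3, Khdc1c, Map7d2 and Defb29. Meg3, a long noncoding RNA of an imprinted locus, read 3.99, 3.95 and 3.67 with vehicle and 2.95 to 3.33 on the bovine arrays, a change of -0.63 (-0.91 to -0.36; adjusted p = 0.457, limma). The arrays of the 2 groups were apart, and all values were low. Khdc1c gave -0.81 (-1.15 to -0.46), Krtap6-3, a hair keratin-associated protein, -0.53 (-0.74 to -0.31), Defb29, a defensin, -0.50 (-0.74 to -0.26) and Map7d2, a microtubule-associated protein, -0.43 (-0.63 to -0.23). Each had a vehicle mean of 4.2 log2 units or less.

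With bPTH(3-34) alone the smallest p-values also included Zfp677 and Zfp719, zinc finger genes, Slc25a41, a mitochondrial carrier, and the defensin Defa33. Zfp677 read 3.61, 3.93 and 4.3 with bPTH(3-34), 2.93, 3.35 and 3.13 with vehicle and 3.35, 3.18 and 3.13 with bPTH(7-34), a change of 0.81 (0.46 to 1.16; adjusted p = 0.446, limma) and of 0.08 (-0.26 to 0.43) for the respective analogs. The bPTH(3-34) arrays alone were apart from vehicle, and the difference between the analogs was not tested. With bPTH(7-34) alone they included Myom1, a muscle M-band protein, at 0.68 (0.35 to 1.01), Lrwd1, a chromatin protein of replication origins, at 0.29 (0.15 to 0.44) and Ngef, a neuronal exchange factor, at 0.45 (0.22 to 0.67). Lower were Ttc30a1, of intraflagellar transport, at -0.51 (-0.73 to -0.28), Dcaf15, a ubiquitin ligase adaptor, at -0.40 (-0.58 to -0.22) and the cyclin Ccnb3 at -0.54 (-0.81 to -0.27). None of these was called.

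Single-analog estimates passed 2-fold for few genes and none was called. There were 3 with bPTH(3-34) (Klk1, Mir3475 and Olfr259), 6 with bPTH(7-34) (Gm13238, Klk1, Mir669m-1, Snord37, Nlrp5 and Gm6818) and 1 pooled, Klk1, a kallikrein protease, at -1.11 (-1.71 to -0.52). These were named after their values were seen, and all had a mean of 3.01 log2 units or less over the 21 arrays. The gene Gm13238 with bPTH(7-34) was the 1 case whose interval lay wholly beyond 1.5-fold, at -1.24 (-1.85 to -0.63; adjusted p = 0.72, limma).

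Ddx5, an RNA helicase of the spliceosome, stood out from these because its signal was high. It read 8.66, 8.64 and 8.41 with vehicle, 8.34, 8.44 and 8.51 with bPTH(3-34) at 100 nM and 8.0, 7.96 and 7.96 with bPTH(7-34) at 1000 nM. The bPTH(7-34) arrays all lay below the vehicle arrays, and the bPTH(3-34) arrays overlapped them. The change with bPTH(7-34) was -0.60 (-0.82 to -0.37) and was not called in the fit of all arrays; with a robust prior for the spread that follows the mean signal it was the 1 gene called (-0.597, adjusted p = 0.0292, limma). A second probe cluster, annotated to Ddx5 together with a microRNA gene, read 8.24 ± 0.06 with vehicle, 8.32 ± 0.05 with bPTH(3-34) and 8.18 ± 0.09 with bPTH(7-34) (SD, n = 3). The 2 clusters thus disagreed.

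bPTH(3-34) shared its dose of 100 nM and time of 4 h with hPTH(1-34) and hPTH(7-34), and these 2 pairs were compared directly. bPTH(3-34) is bovine and lacks the first residues that hPTH(1-34) holds. Against hPTH(1-34), 2068 genes were called (9.32%), 1194 higher and 874 lower with bPTH(3-34), of which 252 differed at least 2-fold; 1618 were called with p-values adjusted over both pairs together. The largest differences were in Vdr (15.2-fold lower), Dgat1 (14.5-fold lower), Nr4a3 (10.7-fold lower), Nr4a2 (8.24-fold lower) and Lrrc32 (7.23-fold lower). Those that were higher included Lgr5 (4.19-fold), Dusp27 (4.12-fold), Bmp4 (3.95-fold), Adm, the vasodilator adrenomedullin (3.74-fold) and Fzd5 (3.59-fold). Dusp27 read 3.42, 3.76 and 3.43 with hPTH(1-34) and 5.64, 5.47 and 5.63 with bPTH(3-34), which overlapped vehicle at 5.59, 5.47 and 5.82. The adjusted p over both pairs was at most 1.9e-06 for these 10 genes (limma).

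Against hPTH(7-34), which is human and begins at residue 7, 11 genes were called (0.0496%), all lower with bPTH(3-34), and 8 differed at least 2-fold. With p-values adjusted over both pairs there were 55 lower and 24 higher. The joint adjustment is looser for this pair because the pair with hPTH(1-34) brings 2068 called genes into it. These counts, and p-values adjusted in this way, thus add no support beyond the pair's own adjustment. The 11 were Tnip3, Acod1, Gpr84, Ccl12, Tlr2, Tnf, Cxcl10, Clec4e, Nfkbie, Nlrp1c-ps and Irf1. All but Cxcl10, Nlrp1c-ps and Irf1 were also called higher than vehicle with hPTH(1-34). That rise was larger with hPTH(1-34) than with hPTH(7-34) for Gpr84 (2.02 against 1.37 log2 units), Ccl12 and Tnf. It was smaller for Tnip3, Acod1 (1.19 against 2.00), Tlr2, Clec4e and Nfkbie. Of the gene lists, which were chosen with earlier results of these data known, 3 of 35 inflammatory and acute phase genes were called lower. So were 2 of 22 interferon-stimulated genes, and 0 of 24 macrophage and osteoclast genes were called. Tlr2 is a receptor for bacterial lipoproteins, Tnf and the chemokines Ccl12 and Cxcl10 are secreted signals, and Acod1 makes itaconate in activated macrophages. Acod1 read 4.66, 4.19 and 3.97 with bPTH(3-34) and 5.90, 6.08 and 7.22 with hPTH(7-34), a difference of -2.13 (-2.69 to -1.56; 4.37-fold; adjusted p = 0.00353 and 4.68e-05 over both pairs, limma). The bPTH(3-34) values overlapped vehicle (4.46, 4.82 and 3.92), as did those of bPTH(7-34) (4.46, 4.72 and 4.60). Cxcl10 read 6.40, 5.99 and 5.87 with bPTH(3-34) and 7.33, 7.25 and 8.21 with hPTH(7-34), and Tnf read 6.55, 6.34 and 6.32 against 7.27, 7.30 and 7.74. In all 3 genes hPTH(7-34) replicate 3 was the highest of the 6 arrays.

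The count of 11 depended on single arrays. It was 2 without bPTH(3-34) replicate 2, 4 without bPTH(3-34) replicate 3 and 4 without hPTH(7-34) replicate 3, and 0 in a fit of only the 6 arrays, where 1251 genes had an unadjusted p under 0.05. Per the labels, hPTH(7-34) came from another supplier than bPTH(3-34) and hPTH(1-34), so peptide and supplier cannot be told apart in this pair. For 17511 genes (78.9%) the interval of the difference between bPTH(3-34) and hPTH(7-34) lay within 1.5-fold. Vdr differed by -0.08 (-0.30 to 0.13), Dgat1 by -0.04 (-0.25 to 0.17), Nr4a2 by -0.23 (-0.54 to 0.08) and Lgr5 by -0.04 (-0.19 to 0.11), none called.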

How the data were processed

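Total RNA (100 ng) was measured on Affymetrix Mouse Gene 2.0 ST arrays. The deposited values are log2 signals, 0.25 to 13.6; RMA and Affymetrix Expression Console are named in the submitters' processing notes, and the base of the logarithm was read from that method. Steps and versions are not given in the sources used here.

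The table held 41345 transcript clusters, of which 23521 had 1 gene symbol in the platform annotation, 1814 several, and 16010 no annotation. The cluster with the highest mean over 21 arrays stood for each gene (1082 genes had several), which left 22180 genes. All 7 groups entered 1 linear model in limma 3.58.1 (R 4.3.3; lmFit, eBayes), so each gene had 1 estimate of its spread, with 14 residual degrees of freedom. The pooled change is the mean of both bovine groups minus vehicle. Tests were two-sided, with calls at an adjusted p under 0.05. Each p-value sets a difference against the spread between replicate cultures within groups, estimated over all 7 groups. The number of arrays limits the precision. The fit was tested on simulated data. Alternatives changed the arrays fitted, the pooling, the prior, a filter on signal, the centring, the cluster per gene, array weights and the replicate block, and left out each array.

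Genes were named by rule: the largest called changes of each comparison whose arrays did not overlap, without predicted genes and small RNAs; where fewer than 5 were called in a direction, the 5 with the smallest p, marked as not called; the panel; and list members with the smallest p. Members, lists and the rule were chosen with earlier results of these data known. Replicate numbers were not used for pairing: same-numbered arrays of the vehicle and bovine groups correlated at -0.017 to 0.048 in their deviations from the group means. Over all 7 groups the median was 0.034 for same-numbered arrays (-0.081 to 0.16) and -0.013 for arrays with different numbers (-0.14 to 0.085). Promoters are from RefSeq.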

Additional observations from a re-analysis of the deposited data

Results flagged for a closer look

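Among the 6 bovine arrays, 60 named genes were searched for 1 array far from the other 5, and 6 genes had one; chance marks about 1 in 20 such groups. Meg3 read 2.95 on bPTH(3-34) replicate 1 and 3.26 to 3.33 on the others, and Khdc1c read 0.94 on the same array and 1.41 to 1.60 on the others. Ngef read 4.18 on bPTH(3-34) replicate 2 against 4.57 to 4.70, and Fos 4.34 on bPTH(3-34) replicate 3 against 4.68 to 4.88. On bPTH(7-34) replicate 2, Nr4a3 read 4.24 against 3.41 to 3.71 and Tnfsf11, the RANKL gene, read 3.64 against 4.44 to 4.90.

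Fzd5 had an estimate of 0.0733 with bPTH(3-34) at 100 nM and -0.0167 with bPTH(7-34) at 1000 nM, with every array of each analog on opposite sides of the vehicle mean. The difference was not tested, since the doses differed.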

How the results depend on the processing

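Every comparison with vehicle called 0 genes in each alternative run, with these exceptions: a trended, robust prior called 1 gene with bPTH(7-34) (Ddx5), and leaving out bPTH(3-34) replicate 3 gave 1 gene in the F test for either analog (Gm7850, -0.775, adjusted p = 0.0434, limma; the range over arrays left out was 0 to 1). Leaving out each array gave 0 to 0 calls for each analog and the pooled arrays. Testing every transcript cluster in place of 1 per gene, an alternative added after the data were seen, also gave 0, 0 and 0 calls, with 2486, 2189 and 2475 at unadjusted p. With the replicate block the calls were 0, 0 and 0, with 1461, 1341 and 1429 at unadjusted p. For the pairs it gave 2405 and 10 calls, and it changed the call of none of the genes that the naming rule took from the pairs.

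bPTH(3-34) against hPTH(1-34) called 1217 genes when only their 6 arrays were fitted and 1534 to 1707 without each array. Against hPTH(7-34) the count was 0 with only the 6 arrays, 18 with the trended prior (1 higher, 17 lower), 17 at a mean signal of at least 5, and 2 to 9 without each array; the cause was not tested. The genes bounded within 1.5-fold numbered 17349 to 18835 without each array and 9510 (98.6% of those tested) at a mean signal of at least 5, where fewer genes were tested. The signed median of the 238 genes was -0.0083 to 0.0067. The bound was less often met at low signal, and there it was not tested as a bound on transcript.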
